A study of Mus musculus with 18 samples.

Results

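Cytosolic ribosomal protein genes were examined in bulk mRNA-seq of the frontal cortex of 18 mice. They were chosen by name, as the genes whose symbol begins with Rpl or Rps followed by a digit, together with Rpsa, Rplp0, Rplp1 and Rplp2, and without the names that contain -ps or begin with Rps6k. The rule took 94 of the 55487 genes in the deposited count table. Of these, 31 encode subunits of the small ribosomal subunit, 46 encode subunits of the large subunit, and 17 are paralogs, copies or genes whose product is not a subunit. The rule uses gene names only, but it was chosen with earlier results of these data known.

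The mice were 9 to 10 months old, with 3 females and 3 males of each of 3 genotypes. The APP/PS1 mice carried the transgenes of the APP/PS1 line, and the APP/PS1/FTnKO mice carried in addition a Cre recombinase under the CaMKIIα promoter, which deletes the floxed gene of the farnesyltransferase β subunit, Fntb, in forebrain neurons after birth. The methods describe the WT and APP/PS1 mice as carrying the floxed alleles too and lacking Cre. The series record calls the WT mice C57BL/6J. No animal received a drug, and the other cells of the cortex kept Fntb in the knockout. The WT mouse 19622 was treated apart, so that comparisons hold 5 WT, 6 APP/PS1 and 6 APP/PS1/FTnKO mice. Total counts were 15925432 to 21030935 per mouse. The RNA integrity number (RIN) lay between 8.5 and 8.8 for WT mice, between 7.7 and 8.7 for APP/PS1 mice and between 7.6 and 8.7 for APP/PS1/FTnKO mice. In the same fit as below (edgeR), Fntb had 14.1 to 32.2 CPM in WT mice, where CPM is the count of a gene relative to the TMM-scaled library size, and the median was 16.9 CPM. It had 14.2 to 32.1 CPM (median 15.8) in APP/PS1 and 7.84 to 14.7 CPM (median 12.5) in APP/PS1/FTnKO mice. WT mice 19718 and 19721 and APP/PS1 mice 19553 and 19554 had 28.7 to 32.2 CPM. The other WT and APP/PS1 mice had 14.1 to 17.1 CPM, a range that held the highest APP/PS1/FTnKO value. The log2 fold change of Fntb in APP/PS1/FTnKO against APP/PS1 mice was -0.77 (SE 0.26, edgeR FDR = 0.251).

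A ribosome is built from a small and a large subunit, each of ribosomal RNA and many proteins that are made in nearly equal numbers. Most mRNAs of ribosomal proteins begin with a C and a tract of pyrimidines, the terminal oligopyrimidine (TOP) motif, through which the kinase complex mTORC1 controls their translation. Rheb, a farnesylated GTPase, activates mTORC1, and the small-subunit protein S6, the product of Rps6, is phosphorylated downstream of it. These counts measure mRNA, not its translation.

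The annotated starts of 8 members are shown to set the TOP motif beside genes that rose in APP/PS1/FTnKO mice. The first 4 are all those among the called members with a RefSeq promoter window and a start of a C followed by at least 4 further pyrimidines. The last 4 are the called members with a window, another start and the smallest p. Each sequence holds 10 bases before and 20 bases from the annotated start, from RefSeq on GRCm38.p6, 5′ to 3′ on the strand of the gene, and capitals mark the longest run of at least 5 pyrimidines that begins with C at or after the annotated start. Runs before the start are left in lower case.
Rps6: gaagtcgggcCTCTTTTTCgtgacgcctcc
Rpl14: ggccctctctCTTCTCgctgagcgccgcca
Rpl35a: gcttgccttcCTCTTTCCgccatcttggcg
Rps18: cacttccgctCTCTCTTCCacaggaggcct
Rpl5: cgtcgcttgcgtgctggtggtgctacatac
Rps23: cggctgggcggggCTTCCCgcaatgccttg
Rps16: ttctgtcgtgacgtagcactcaatgcgcct
Rps4x: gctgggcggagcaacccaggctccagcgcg
In order, these lie at chr4:86857348-86857377 (minus strand), chr9:120571507-120571536 (plus), chr16:33056472-33056501 (plus), chr17:33955646-33955675 (minus), chr5:107900518-107900547 (plus), chr13:90923112-90923141 (plus), chr7:28350679-28350708 (plus) and chrX:102189372-102189401 (minus). In Rps23 the run began 3 bases after the annotated start.

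Of the 94 members, 69 had a promoter window, and in 15 of them (21.7%) a window began at its annotated start with a C and at least 4 further pyrimidines, on the strand of the gene. The same start was found in 813 of the 27025 genes with a window (3.01%). A run of this kind that began within 25 bases of the annotated start was found in 82.6% of the members and 59.3% of all genes. The 14 tested members with such a start had a median log2 fold change of 0.256 in APP/PS1/FTnKO against WT mice, and the 50 tested members with another start had a median of 0.281. In APP/PS1 against WT mice these medians were 0.177 and 0.205, and in APP/PS1/FTnKO against APP/PS1 mice they were 0.0751 and 0.0627. Such a start was found in 4 of 24 members called in APP/PS1/FTnKO against WT mice (16.7%) and in 10 of 40 members not called (25%). These classes rest on the exact annotated base, whereas 82.6% of the members had a run within 25 bases of it. They cannot show which members have a TOP motif, so no conclusion on TOP mRNAs is drawn from them.

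Ribosomal protein mRNAs took about 1% of all counts, with a higher mean in both APP/PS1 genotypes than in WT mice. The shares are a description, with no test. The share of counts in the 94 genes was 1.043%, 0.988%, 1.096%, 0.970% and 1.040% in the 5 WT mice. The APP/PS1 mice lay between 1.024% and 1.390%, with a median of 1.19%, and the APP/PS1/FTnKO mice between 1.126% and 1.429%, with a median of 1.28%. Each APP/PS1/FTnKO mouse lay above every WT mouse, whereas the APP/PS1 mice overlapped with both other genotypes. The means were 1.027% ± 0.0499 (SD, n = 5) in WT, 1.188% ± 0.136 (n = 6) in APP/PS1 and 1.274% ± 0.121 (n = 6) in APP/PS1/FTnKO mice. Small-subunit genes took 0.723 ± 0.0154 times the counts of large-subunit genes in WT mice, 0.724 ± 0.0151 times in APP/PS1 mice and 0.735 ± 0.0154 times in APP/PS1/FTnKO mice (SD, n = 5, 6 and 6). In bulk tissue, more cells of a type and more RNA per cell cannot be told apart.

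RNA integrity moved with the share. The 2 mice with the lowest RIN, the APP/PS1/FTnKO mouse 16974 (RIN 7.6) and the APP/PS1 mouse 16975 (RIN 7.7), had the 2 highest shares, 1.429% and 1.390%. At a RIN of 8.5 or more, 5 WT mice had shares between 0.970% and 1.096%, 2 APP/PS1 mice had 1.024% and 1.060%, and 4 APP/PS1/FTnKO mice lay between 1.126% and 1.325%. In those mice the APP/PS1/FTnKO values still lay above all WT values, and the APP/PS1 values lay within the WT range. The part of the other differences between the samples in these shares was not tested.

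**Figure D1:**
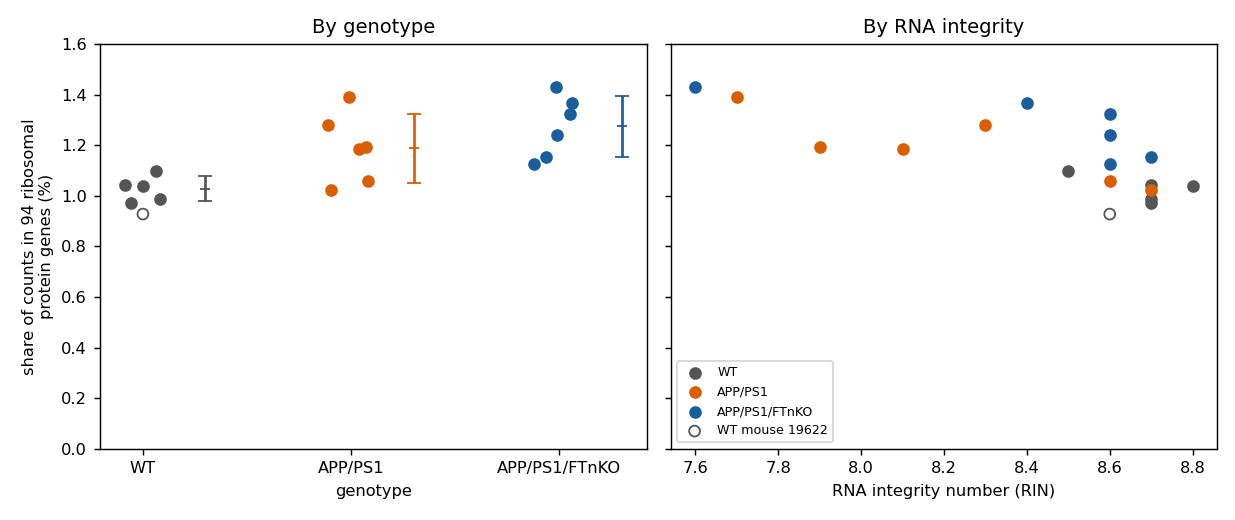
Share of all counts in the 94 ribosomal protein genes (%, vertical axis) for each mouse by genotype (left, with mean and SD beside the points) and against RIN (right). Filled points are the 17 mice of the comparisons and the open circle is WT mouse 19622. The APP/PS1/FTnKO mice lie at 1.126% or more and the 5 WT mice at 1.096% or less, and the 2 lowest RIN values go with the 2 highest shares.

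Levels differed widely between the members. Per kilobase of annotated exons, the highest mean CPM over the 17 mice was that of Rplp1, an acidic protein of the ribosomal stalk, at 796. Rps15, Rps29, Rps3a1 and Rpl41 followed at 412, 388, 268 and 248 CPM per kilobase. The lowest among the tested members were Rpl3l, a paralog of Rpl3 known from muscle, at 0.33, Rpl24 at 0.593, Rps10 at 1.34, and the copies Rps3a2 and Rps3a3 at 1.79 and 5.06 CPM per kilobase. Of the 77 subunit genes, 72 had a mean above 50 CPM, and the exceptions were Rpl24 (0.611 CPM), Rps10 (3.09 CPM), Rpl13a (11.9 CPM), Rpl34 (31.6 CPM) and Rpl21 (35.6 CPM). Rpl24 and Rps10 each share exons on their strand with another annotated gene, over 47.0% and 20.6% of their exon bases, and 35.4% of the exon bases of Rpl13a are shared in this way. Of the 150-base stretches of the transcripts of Rpl24, Rpl13a and Rps10, 72.5%, 52.7% and 44.2% also occur in transcripts of other genes, so that their levels are uncertain. Over all 94 members, 77 had at least 1 such stretch in common with another gene, and in 19 at least 50% of the stretches were shared. Among the latter was Rpl10, with 83.3%, whereas Rpl32 had none.

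Of the 94 members, 88 passed the filter on low counts and were tested, as part of all 17414 tested genes. The 6 that did not pass were Rpl10l, with no count in any of the 17 mice, and Rps12l1, Rps23rg1, Rpl39l, Rpl36al and Rpl32l, with means of 0.00898 to 0.342 CPM. Genotypes were compared in edgeR's quasi-likelihood test with sex as a further term, and a gene was called at a Benjamini-Hochberg FDR under 0.05 over all of them.

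Against WT mice, most ribosomal protein genes were at a higher level in APP/PS1 mice by a small amount, and 2 were called. They were 1 small-subunit and 1 large-subunit gene, both higher, and the latter was Rpl32. Among all tested genes 1.50% were called, 1.32% as higher and 0.178% as lower. Rpl32 (ENSMUSG00000057841, chromosome 6, 115805505 to 115808747 on GRCm38, minus strand) had 103.5, 98.9, 114, 100.4 and 99.7 CPM in the 5 WT mice and 109.5 to 150.2 CPM (median 128.2) in APP/PS1 mice. Its groups overlapped, since the lowest APP/PS1 mouse lay below the highest WT mouse. The log2 fold change of Rpl32 was 0.33 (SE 0.08, edgeR FDR = 0.0499).

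Over the 88 members, 84 had a log2 fold change above 0 in this comparison (49.4% of all tested genes), with a median of 0.202, while the median of all tested genes was -0.0023. An unadjusted p under 0.05 with a higher level was reached by 56 members, against 7.91% of all tested genes, and by 0 members with a lower level, against 6.05%. In 5 members, among them Rpl7a, Rpl10, Rps3a1 and Rps4x, every APP/PS1 mouse lay above every WT mouse, which held for 1.71% of all tested genes. The medians were 0.201 for small-subunit genes and 0.202 for large-subunit genes. Next by p after the 2 called members were Rps4x, Rpl10 and Rps16, with log2 fold changes of 0.30, 0.25 and 0.28 and FDR values of 0.0710, 0.0865 and 0.0978 in edgeR. The 4 members with a value below 0 were Rpl21 (-0.77, SE 0.69), the copy Rps4l (-0.21, SE 0.25), Rps27a, which encodes ubiquitin fused to a ribosomal protein (-0.08, SE 0.16), and Rps19bp1, whose product binds Rps19 and SIRT1 (-0.05, SE 0.10), all with an FDR of 0.647 or more.

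The calls in APP/PS1 mice depended on single mice and on RIN. Leaving out 1 mouse at a time gave 0 to 6 called members, beside 0.706% to 2.68% of all tested genes, and 0 were called without WT mouse 18944, 19053, 19718 or 19721, without APP/PS1 mouse 16975, 19553, 19554 or 19723, or without APP/PS1/FTnKO mouse 18943, 19394 or 19720. Without WT mouse 19101 or APP/PS1/FTnKO mouse 19722, 1 was called, and without APP/PS1 mouse 19619 or 19744 or APP/PS1/FTnKO mouse 18973, 4, 6 and 4 were called. With RIN as a covariate 0 members were called, against 0.459% of all tested genes as higher and 0.0230% as lower, and the median log2 fold change was 0.0594. In that edgeR fit 6 members were higher (4.59% of all tested genes) and 2 lower (3.81%) at an unadjusted p under 0.05. DESeq2 without RIN called 7 members, and 2.69% of all genes to which it gave an adjusted p.

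**Figure D2:**
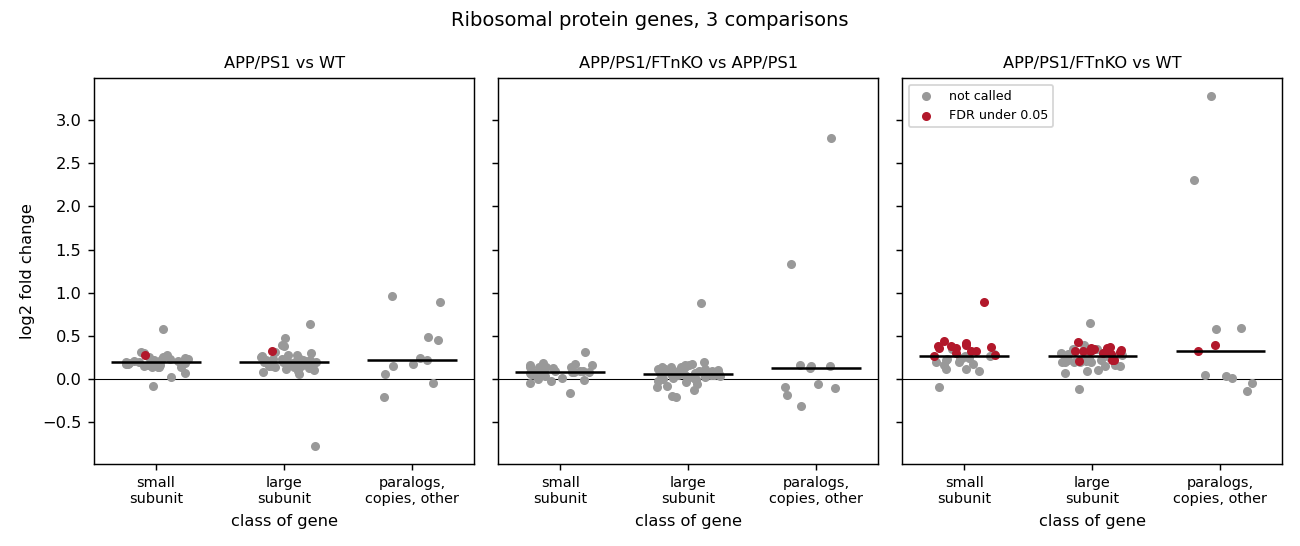
Log2 fold change (vertical axis) of the 88 tested members by class in the 3 genotype comparisons. Each point is a gene, red where the edgeR FDR was under 0.05, and the black line is the median of the class. All red points lie above 0, with 2 in the left, 0 in the middle and 33 in the right panel.

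The effect of the knockout on the APP/PS1 background is read from APP/PS1/FTnKO against APP/PS1 mice, where 0 of the 88 members were called by edgeR and 0 by DESeq2. Among all tested genes 0.327% were called by edgeR, 0.184% as higher and 0.144% as lower, and DESeq2 called 1.70% of the genes to which it gave an adjusted p. An unadjusted p under 0.05 was reached by 10 members with a higher level (5.82% of all tested genes) and by 0 with a lower level (5.69%). Of the 88 members, 69 had a log2 fold change above 0 (49.5% of all tested genes), and the median was 0.0751, against -0.0016 for all tested genes. Leaving out 1 mouse at a time gave medians of 0.0346 to 0.125. In these fits 0 members were called, beside 0.0578% to 0.467% of all tested genes. There were 0 members in which every APP/PS1/FTnKO mouse lay above every APP/PS1 mouse (0.597% of all tested genes) and 0 in which every one lay below (0.373%). Of the subunit genes, Rpl5, which binds ribosomal RNA before assembly, had the smallest p. It had 213.6 to 264.3 CPM (median 240.7) in APP/PS1/FTnKO and 193.5 to 242.4 CPM (median 209.7) in APP/PS1 mice, and the groups overlapped. Its log2 fold change was 0.16 (SE 0.06, edgeR FDR = 0.272).

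Rpl17, which lies at the exit of the peptide tunnel, Rpl4 and Rpl36a had log2 fold changes of 0.20, 0.14 and 0.17 and FDR values of 0.305, 0.324 and 0.397 in the same test. The 5 members with the smallest p among those with a lower level were Rpl22l1 (-0.10), Rps27l (-0.18), Rplp0 (-0.20), Rpl3l (-0.32) and Rps19bp1 (-0.09), with FDR values of 0.595 to 0.785. Rpl22l1 and Rps27l are paralogs of Rpl22 and Rps27, and Rplp0 encodes the base of the ribosomal stalk. With RIN as a covariate 6 members were called higher, against 0.614% of all tested genes (0.884% lower), namely Rpl4, Rpl5, Rpl17, Rpl36a, Rps23 and Rpsa, and the median log2 fold change was 0.134. In that edgeR fit 42 members were higher (7.76% of all tested genes) and 0 lower (8.27%) at an unadjusted p under 0.05.

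Between APP/PS1/FTnKO and WT mice, 33 of the 88 members rose and 0 fell. They were 14 small-subunit genes, 17 large-subunit genes and the copies Rpl6l and Rpl37rt. Among all tested genes 3.87% were called, 2.22% as higher and 1.65% as lower. The fitted folds against WT mice were 1.16 to 1.35 for all called members other than Rps18, whose fitted fold was 1.86, with a median of 1.26. The comparison shares its WT mice with that of APP/PS1 against WT and its APP/PS1/FTnKO mice with that of the knockout, so that the values of the 3 comparisons are not independent.

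Rpl32 had 117.4 to 156.1 CPM (median 142.7) in APP/PS1/FTnKO mice, all above the WT values given above, and rose by 0.43 on the log2 scale (SE 0.08, edgeR FDR = 0.00805).

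Rps23, a protein of the decoding center, had 175.4, 180.4, 184.1, 166.1 and 173.7 CPM in WT and 207.5 to 266.8 CPM (median 233.3) in APP/PS1/FTnKO mice. The groups did not overlap, and its log2 fold change was 0.40 (SE 0.08, edgeR FDR = 0.00998). Rpl5 had 195.8, 192.2, 189.7, 183.6 and 193.9 CPM in WT mice, below all 6 APP/PS1/FTnKO mice. Its log2 fold change was 0.32 (SE 0.06, edgeR FDR = 0.00958).

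Rps6, which encodes S6, had 143.5, 147.4, 149.6, 138.9 and 148.9 CPM in WT mice. It had 146.7 to 179.6 CPM (median 163.1) in APP/PS1 and 157.0 to 190.3 CPM (median 178.4) in APP/PS1/FTnKO mice. The APP/PS1/FTnKO mice lay above all WT mice and the APP/PS1 mice overlapped with both. The log2 fold change of Rps6 was 0.27 (SE 0.06, edgeR FDR = 0.0213) in APP/PS1/FTnKO against WT mice. In APP/PS1 against WT mice it was 0.14 (SE 0.06, edgeR FDR = 0.300), and in APP/PS1/FTnKO against APP/PS1 mice 0.13 (SE 0.06, edgeR FDR = 0.407).

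Rpsa, a small-subunit protein also known as a laminin receptor, had 382.5, 359.4, 405.8, 345.1 and 389.6 CPM in WT and 432.2 to 544.1 CPM (median 490.6) in APP/PS1/FTnKO mice. The groups did not overlap, and its log2 fold change was 0.36 (SE 0.08, edgeR FDR = 0.0226). The stalk genes were not called in the same test. Rplp0, Rplp1 and Rplp2 had log2 fold changes of 0.28 (SE 0.20), 0.16 (SE 0.09) and 0.20 (SE 0.07) against WT mice, with FDR values of 0.429, 0.334 and 0.102 in edgeR.

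Of the 10 called members with the smallest p, a further 6 were Rps16, the copy Rpl6l, Rpl17, the X-linked Rps4x, Rps12 and Rps25. Their log2 fold changes were 0.39, 0.40, 0.37, 0.36, 0.44 and 0.32 in this order, with FDR values of 0.0132 to 0.0209 in edgeR. Rps12 was the 1 among them whose groups overlapped, with 71.7 to 88.1 CPM in WT and 85.0 to 122.7 CPM in APP/PS1/FTnKO mice. Rpl6l is annotated as a processed pseudogene, and 47.6% of the 150-base stretches of its transcript occur in other genes, so that its reads may be shared with them. The 4 members with a value below 0 were Rps19bp1 (-0.13, SE 0.10), Rpl24 (-0.11, SE 0.31), Rps10 (-0.08, SE 0.23) and Rps4l (-0.04, SE 0.25).

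Over the 88 members the median log2 fold change in APP/PS1/FTnKO against WT mice was 0.274, against 0.0053 for all tested genes, and 84 were above 0 (51.3% of all tested genes). At an unadjusted p under 0.05, 67 members were higher (11.3% of all tested genes) and 0 lower (10.9%). In 32 members every APP/PS1/FTnKO mouse lay above every WT mouse, which held for 2.75% of all tested genes, and in 0 members the reverse, which held for 2.85%. The medians were 0.271 for small-subunit and 0.273 for large-subunit genes. In the fit with RIN, 21 members were called higher (1.27% of all tested genes, with 0.953% lower), all of them among the 33, and the median was 0.195. At an unadjusted p under 0.05, 54 members were higher in that edgeR fit (8.76% of all tested genes) and 0 lower (8.78%). At a RIN of 8.5 or more the median was 0.205 and 7 members were called higher, against 0.740% of all genes tested in these mice. DESeq2 called 47 members in all 17 mice, and 8.59% of all genes to which it gave an adjusted p.

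Leaving out 1 mouse at a time gave 7 to 48 called members, all of them with a higher level, while 1.17% to 5.69% of all tested genes were called in these fits. The count was 8, 7, 7 and 15 without the WT mice 18944, 19053, 19718 and 19721. It was 7, 11, 20 and 18 without the APP/PS1/FTnKO mice 16974, 18943, 19394 and 19720. The median log2 fold change stayed between 0.236 and 0.315 in these fits.

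**Figure D3:**
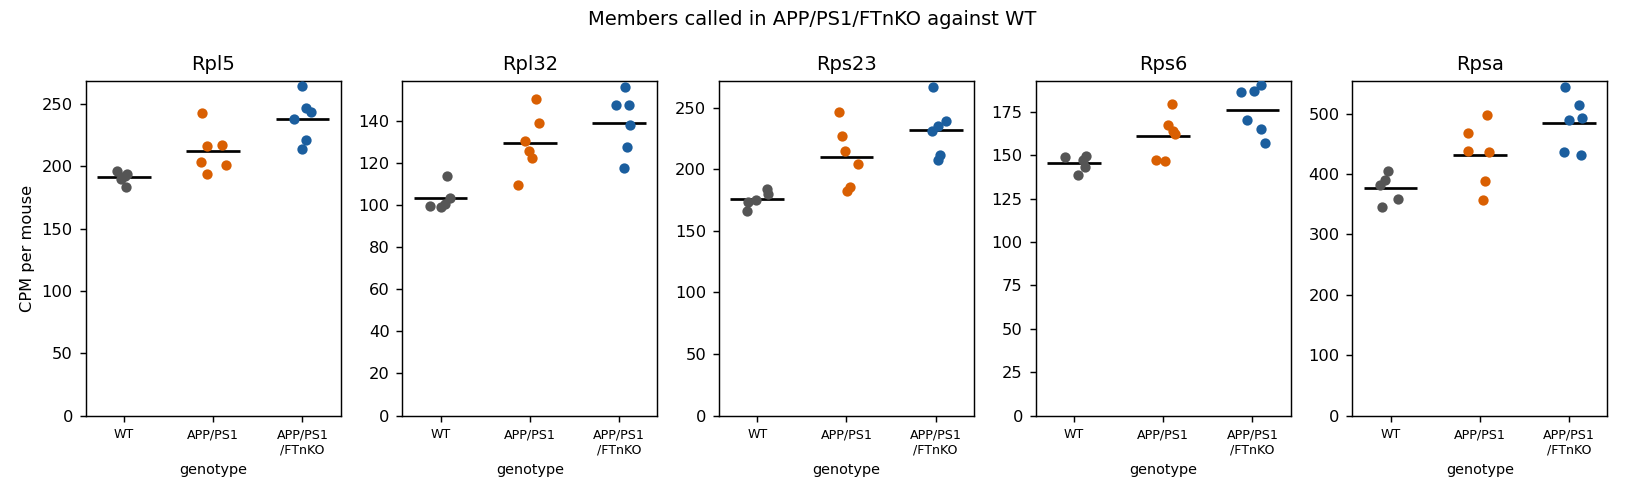
CPM per mouse (vertical axes, from 0) of Rpl5, Rpl32, Rps23, Rps6 and Rpsa by genotype, with a line at the mean of each group. In each of the 5 genes the 6 APP/PS1/FTnKO mice lie above the 5 WT mice, and the APP/PS1 mice lie between or across them.

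Markers of activated microglia moved with the same genotypes. The 5 activated microglia markers (Cst7, Itgax, Clec7a, Tyrobp and Trem2) summed to 22.2 to 26.4 CPM in WT mice, 84.7 to 258 CPM in APP/PS1 mice and 49.1 to 180 CPM in APP/PS1/FTnKO mice, and all 5 were called in both comparisons with WT mice. The 5 homeostatic microglia markers summed to 294 to 330, 394 to 619 and 298 to 481 CPM in the same order, with 3 called in APP/PS1 and 1 in APP/PS1/FTnKO against WT mice. The 5 astrocyte markers summed to 1060 to 1180, 1350 to 2560 and 1180 to 2230 CPM, with 1 called in each of these comparisons. The 5 oligodendrocyte markers summed to 3550 to 5310, 3190 to 6580 and 4450 to 7180 CPM, with 0 called in edgeR in each of the 3 comparisons. The 6 excitatory neuron markers summed to 4580 to 6390, 4040 to 6170 and 3350 to 5110 CPM, with 1 called in APP/PS1/FTnKO against WT mice. No marker of these lists was at 0 in every mouse of a genotype. The part of these cells in the levels of ribosomal protein genes was not tested.

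RIN itself was related to the members in the fit that held it beside genotype and sex. Of the 88 members, 47 were called lower with higher RIN and 0 were called higher, against 3.97% and 4.43% of all tested genes. The median log2 change of the members was -0.28 per RIN unit, and 85 of the 88 were below 0. The strongest by FDR among the subunit genes was Rpl23a, at -0.34 per RIN unit (SE 0.06, edgeR FDR = 0.00621). Genotype and RIN overlap in this design, since 5 of 5 WT mice had a RIN of at least 8.5, whereas 2 of 6 APP/PS1 and 4 of 6 APP/PS1/FTnKO mice did.

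The members moved together among mice. The log2 levels of the 77 subunit genes were centered and each gene was scaled to equal variance. Over the 17 mice the first principal component of these values held 75.2% of their variance, with the same sign for all 77 genes. After the genotype means were removed and each gene was scaled again, it held 70.9%, with the same sign for 76 genes. The points share library, depth and RIN. The mean difference of the subunit genes from their own means was lowest in WT mouse 19053 (-0.22 on the log2 scale) and highest in the APP/PS1/FTnKO mouse 16974 (0.27).

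In APP/PS1/FTnKO against WT mice, other gene lists of the translation apparatus had medians nearer to 0 than the members. Fau and Rack1, which encode ribosomal subunits outside the naming rule, had log2 fold changes of 0.26 and 0.17, and 0 of these 2 were called in edgeR, with 2 at an unadjusted p under 0.05. Of 18 translation factors and other genes with TOP mRNAs, 3 rose in this comparison, Eef1g (0.37), Eef1b2 (0.24) and Eif3h (0.19), and the median was 0.131. Eef1g, a subunit of the elongation factor that reloads Eef1a with GTP, also rose against APP/PS1 mice, by 0.24 (SE 0.05, edgeR FDR = 0.0368). Of 28 ribosome biogenesis genes, Polr1a, the largest subunit of RNA polymerase I, rose by 0.32 and Bop1, a factor in large-subunit assembly, fell by 0.22 on the log2 scale, with a median of 0.0147. Of 12 genes of mTORC1 and its control of translation, 0 were called by edgeR, with a median of -0.0256. At an unadjusted p under 0.05, 4 had a lower level and 0 a higher level, against 10.9% and 11.3% of all tested genes. Called in APP/PS1/FTnKO against WT mice were 2.22% of all tested genes as higher and 1.65% as lower.

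The mitochondrial ribosome is built from other proteins, which are also encoded in the nucleus. The median log2 fold change of 77 tested genes for them was 0.0305 in APP/PS1 against WT, 0.0060 in APP/PS1/FTnKO against APP/PS1 and 0.0439 in APP/PS1/FTnKO against WT mice, with 0, 0 and 1 called, the last of them lower. At an unadjusted p under 0.05, 7 and 0 of them were higher and lower in the first comparison, 5 and 2 in the second and 9 and 2 in the third. Nuclear genes of oxidative phosphorylation had medians of 0.0435, -0.103 and -0.0498 in these comparisons, with 0, 2 and 2 of 79 called, all of them lower. At an unadjusted p under 0.05, 10 of them were higher and 0 lower in the first, 2 higher and 36 lower in the second, and 2 higher and 16 lower in the third. At that p, 7.91% of all tested genes were higher and 6.05% lower in the first comparison. The shares were 5.82% and 5.69% in the second, and 11.3% and 10.9% in the third. Called were 1.50%, 0.327% and 3.87% of all tested genes in the 3 comparisons. The 13 mitochondrially encoded genes had medians of 0.227, -0.0910 and 0.179. Ribosomal protein mRNAs are short, with a median of 866 bases against 2562 for protein-coding genes. The 729 tested protein-coding genes under 1000 bases that are not members had medians of 0.0680, -0.0177 and 0.0591 in the 3 comparisons, and a median of -0.112 per RIN unit.

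**Figure D4:**
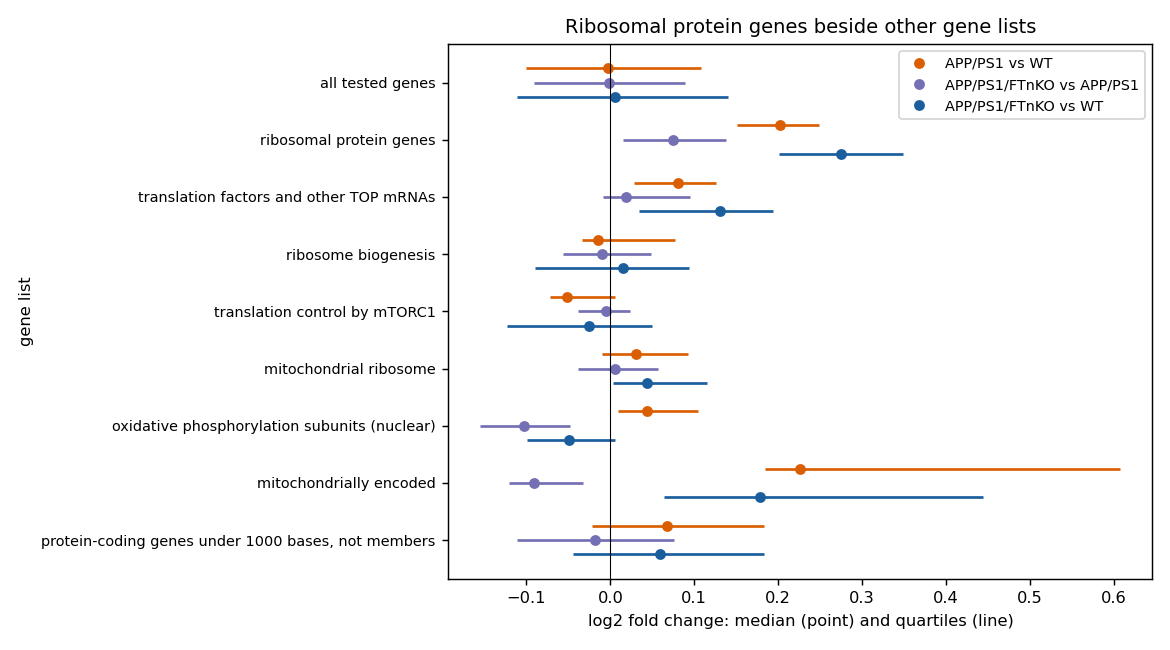
Median (point) and quartiles (line) of the log2 fold change (horizontal axis) for all tested genes, the ribosomal protein genes and 7 other gene lists (vertical axis) in the 3 genotype comparisons. The ribosomal protein genes have medians of 0.202, 0.0751 and 0.274, and the mitochondrial ribosome 0.0305, 0.0060 and 0.0439.

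A few members were at several levels among mice of 1 genotype. Rps18 had 31.1, 71.0, 83.0, 74.9 and 76.1 CPM in WT, 74.1 to 171.4 CPM (median 83.9) in APP/PS1 and 82.3 to 160.5 CPM (median 115.4) in APP/PS1/FTnKO mice. A WT mouse and an APP/PS1 mouse stood far from the rest of their groups. Rps18 rose in APP/PS1/FTnKO against WT mice, by 0.89 on the log2 scale (SE 0.23, edgeR FDR = 0.0423). With RIN as a covariate its value was 0.70 (SE 0.21, edgeR FDR = 0.0893), which was not called.

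Rpl21 had 40.2, 36.8, 71.7, 38.4 and 6.93 CPM in WT, 7.13 to 62.0 CPM (median 9.00) in APP/PS1 and 8.61 to 97.4 CPM (median 48.3) in APP/PS1/FTnKO mice. Mice of each genotype fell near 10 CPM or below and near 40 CPM or above, with none between. Rpl34 had 45.6, 7.83, 8.41, 22.8 and 24.0 CPM in WT mice, 8.88 to 50.3 CPM (median 43.0) in APP/PS1 and 30.4 to 45.8 CPM (median 33.0) in APP/PS1/FTnKO mice. For Rpl21 and Rpl34 0 of the 3 genotype comparisons gave a call.

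The copies Rps3a2 and Rps3a3, both annotated as processed pseudogenes, were at 13.7 and 53.7 CPM in the APP/PS1/FTnKO mouse 16974. In the other 16 mice they were at 0.111 to 1.24 and 0.555 to 1.41 CPM. The log2 fold change of Rps3a3 in APP/PS1/FTnKO against APP/PS1 mice, 2.79 (SE 0.96, edgeR FDR = 0.262), thus rests on 1 mouse. Of the 150-base stretches of Rps3a2 and Rps3a3, 60.5% and 17.8% also occur in other genes, so that their reads may be shared. Rps3a1 was at 225.3 CPM in mouse 16974 and at 268.5 to 315.1 CPM in the other APP/PS1/FTnKO mice. The cause was not tested for these genes. Of the tested members, 8 of 88 had a ratio of the highest to the lowest mouse above 3, which held for 17.9% of all tested genes with counts in each mouse, and the median ratio was 1.49, against 1.59 for those genes.

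**Figure D5:**
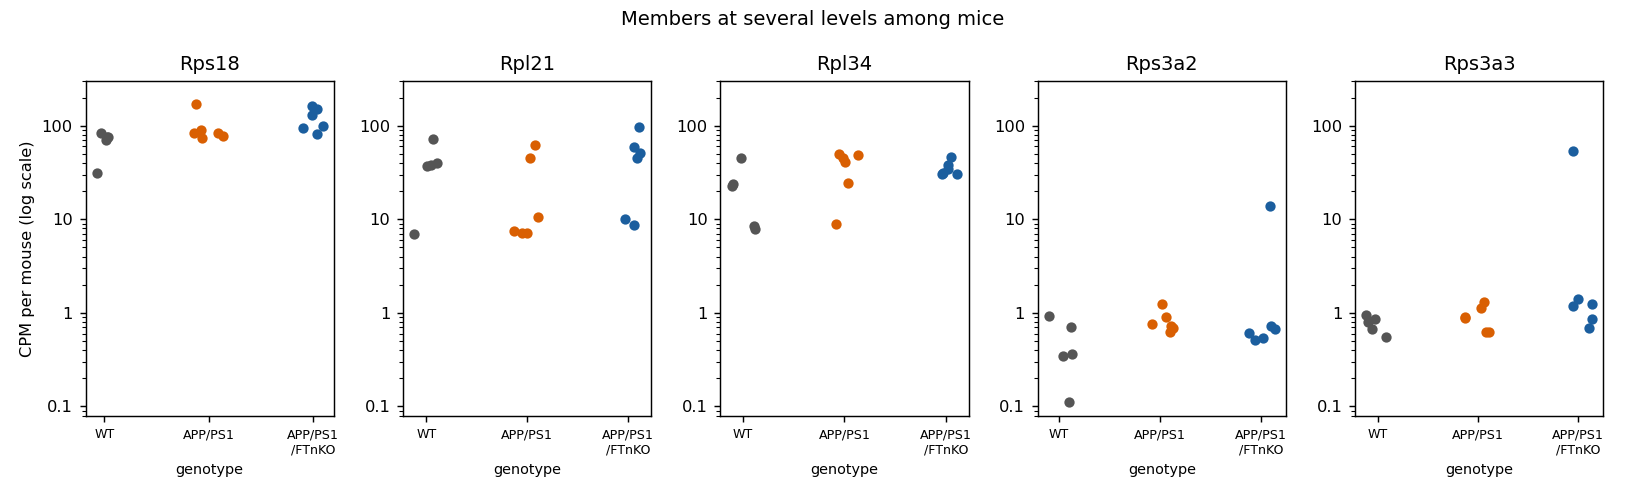
CPM per mouse (vertical axes, log scale) of Rps18, Rpl21, Rpl34, Rps3a2 and Rps3a3 by genotype. Rpl21 lies at separate levels within each genotype and Rpl34 within WT and APP/PS1 mice, and Rps3a2 and Rps3a3 are high in 1 APP/PS1/FTnKO mouse, at 13.7 and 53.7 CPM.

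Paralogs and copies other than Rpl6l and Rpl37rt were not called in any genotype comparison. Rpl7l1 and Rps27rt had log2 fold changes of 0.01 (SE 0.07) and 0.59 (SE 0.16) in APP/PS1/FTnKO against WT mice, with FDR values of 0.940 and 0.0507 in edgeR. Rpl22l1, Rps27l and Rpl3l had 0.05 (SE 0.07), 0.04 (SE 0.12) and 0.58 (SE 0.38), with FDR values of 0.746, 0.876 and 0.391.

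Sex made no called difference. Between males and females 0 of the 88 members were called by edgeR and 0 by DESeq2, against 0.0689% of all tested genes in edgeR (0.0345% higher and 0.0345% lower in males) and 0.144% in DESeq2. At an unadjusted p under 0.05, 2 members were higher in males (2.92% of all tested genes) and 0 lower (3.78%), and the median log2 difference was -0.0002. The sex by genotype interaction was called for 0 members in APP/PS1 against WT and 0 in APP/PS1/FTnKO against APP/PS1 mice, with 1 member at an unadjusted p under 0.05 in each, and it was called for 0% of all tested genes. The median log2 fold changes were 0.164 in males and 0.244 in females in the first, and 0.128 and 0.028 in the second. The value was higher in males for 15 and 74 of the 88 members in this order. The members as a set were not tested.

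The WT mouse 19622 had the lowest share of counts in the members of all 18 mice, 0.928%. Markers of cerebellum summed to 3160 CPM in it, against 61.8 to 132 CPM in the other WT mice, and forebrain markers to 6.19 CPM against 239 to 362 CPM, so that its tissue did not match the frontal cortex of its label. Against the other WT mice the median log2 difference of the members was -0.139, whereas all tested genes had a median of 0.0261. Of the 88 members, 51 lay below the range of the other 5 WT mice, as did 34.9% of all tested genes, and 9 lay above it, as did 38.9%. Rpl21 (-2.87), Rps2 (-0.91), Rplp1 (-0.78), Rpl12 (-0.61) and Rpl41 (-0.59) were the lowest against them, and Rpl34 (1.05), Rplp0 (0.54), Rps27l (0.39), Rps4l (0.36) and Rpl24 (0.35) the highest. A difference above 0.5 in size was found in 13.6% of the members and 37.7% of all tested genes. With this mouse in the fit, 2, 0 and 24 members were called in APP/PS1 against WT, APP/PS1/FTnKO against APP/PS1 and APP/PS1/FTnKO against WT mice, beside 1.20%, 0.0116% and 1.51% of all genes tested in 18 mice.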

How the data were processed

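The authors made stranded mRNA libraries from frontal cortex, trimmed the reads with Trimmomatic 0.33 (quality by FastQC 0.11.7), aligned them to GRCm38 with HISAT2 2.1.0 and counted them per gene with featureCounts. The deposited values are raw counts per gene without normalization. The featureCounts version and its settings for strand and multi-mapping reads: not given in the sources used here. Its 18 columns are 1 mouse each, and 0 columns were left unused. Mice are taken as separate animals from their labels.

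Members and gene lists were chosen with earlier results of these data known. The list of short genes and the fits on mice with a RIN of at least 8.5 were added after the values had been seen. The filter (filterByExpr, minimum count 10, by genotype) left 17414 genes in 17 mice and 17285 in 18. Counts were scaled by TMM and tested with edgeR 4.0.16 in R 4.3.3 (quasi-likelihood F test, genotype and sex, FDR threshold 0.05), after a test on simulated data. CPM values are scaled by TMM. Alternatives were DESeq2 1.42.0, RLE scaling, scaling without the members, no filter, no sex term, RIN as a covariate, mice of RIN 8 or more, a fit of 2 genotypes at a time, all 18 mice and each mouse left out. Gene lengths, shared exons and shared 150-base stretches came from GENCODE M21 on GRCm38, which matched 99.5% of the genes, and promoter windows from RefSeq. Named are the 5 members with the smallest p in each direction per comparison, called members (the 10 with the smallest p where over 20), the 5 highest and lowest per length, Rps6, Rpsa, the stalk genes, paralogs, subunits outside the rule, and the 5 members most different in WT mouse 19622 in each direction. Others named, such as Rps18, Rpl34, Rpl13a and Rpl23a, were chosen after their values were seen. The results of some genes are not reported here.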

Additional observations from a re-analysis of the deposited data

Results flagged for a closer look

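Among 99 groups of mice examined for single values far from the rest, 5 values stood apart, and chance alone marks about 1 in 20 groups. Rps18 was at 31.1 CPM in WT mouse 18944, against 71.0 to 83.0 CPM in the other 4 WT mice. It was at 171.4 CPM in APP/PS1 mouse 16975, against 74.1 to 90.5 CPM in the other 5 APP/PS1 mice. In the same mouse the ratio of small-subunit to large-subunit counts was 0.754, against 0.711 to 0.723 in the others. The APP/PS1/FTnKO mouse 16974 had 13.7 CPM of Rps3a2, against 0.513 to 0.726 CPM, and 53.7 CPM of Rps3a3, against 0.695 to 1.41 CPM, in the other 5 APP/PS1/FTnKO mice. Outside the comparisons, the cerebellum markers of WT mouse 19622 summed to 3160 CPM, far above the other WT mice. The causes were not tested.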

How the results depend on the processing

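The direction of the median log2 fold change of the members was the same in all settings run. In APP/PS1 against WT mice, 2 members were called in the reported fit, 7 with DESeq2 (2.69% of all tested genes), 6 without a filter on low counts (1.36%), 1 in only the genotypes compared (1.13%), and 0 with RIN as a covariate, in mice with a RIN of at least 8 or in mice with a RIN of at least 8.5 (0.482%, 0.689% and 0.0561%). The median of 0.202 fell to 0.0594 with RIN as a covariate and 0.0182 in mice with a RIN of at least 8.5, which left 2 APP/PS1 mice. In APP/PS1/FTnKO against APP/PS1 mice, where 0 were called, 1 was called without a filter (0.314% of all tested genes) and 6 with RIN as a covariate (1.50%), and the median of 0.0751 was 0.134 with RIN as a covariate and 0.194 in mice with a RIN of at least 8.5. In APP/PS1/FTnKO against WT mice, 33 (3.87% of all tested genes) became 21 with RIN as a covariate (2.23%), 20 in mice with a RIN of at least 8 (2.11%) and 7 in mice with a RIN of at least 8.5 (1.01%), but 48 without a filter (2.93%) and 44 in only the genotypes compared (5.05%). Leaving out each mouse in turn gave 0 to 6, 0 to 0 and 7 to 48 called members in these comparisons, with medians of 0.139 to 0.249, 0.0346 to 0.125 and 0.236 to 0.315. The 47 members that DESeq2 called in APP/PS1/FTnKO against WT mice, where it called 8.59% of all genes with an adjusted p, included all 33, and it gave no adjusted p for 4. The sign of some uncalled genes turned. Rps19bp1 was at 0.0423, 0.0609, 0.000447 and 0.0539 in APP/PS1 against WT mice with all 18 mice, RIN as a covariate and a RIN of at least 8 and 8.5, and at 0.0226 without WT mouse 19053 and 0.00249 without APP/PS1 mouse 19554. In mice with a RIN of at least 8.5, Rps3a3 (-0.0963) and Rplp0 (0.0794) turned in APP/PS1/FTnKO against APP/PS1 mice and Rpl24 (0.00384) against WT mice. With each mouse left out in turn, Rps19bp1 ranged from -0.092 to 0.0226 in the first of these comparisons, and in APP/PS1/FTnKO against WT mice Rpl24 ranged from -0.277 to 0.0771, Rps10 from -0.193 to 0.000739 and Rps4l from -0.184 to 0.0767 (0.0247, 0.0629 and 0.0703 between them). The cause was not tested. No paired analysis was possible because the genotypes share no replicate numbers. Counting error limits the members under 1 CPM, such as Rpl24 and Rpl3l.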
